A study of Mus musculus with 16 samples.

Results

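The Sox2 locus on mouse chromosome 3 was described through the promoter contacts of Sox2, Sox2ot and Mir1897. All interactions whose captured promoter fragment carried one of these 3 names were taken, with suffixes on transcript names removed. They came to 35 of the 260860 listed interactions, from 3 of the 20017 promoter fragments: 20 for Sox2, 14 for Mir1897 and 1 for Sox2ot. Contacts were measured by promoter-capture Hi-C, in which chromatin is cut with HindIII, fragments that lie together in the nucleus are ligated, and ligated pairs that hold a gene promoter are pulled out with RNA baits. The cells were mouse embryonic stem cells (ESC, day 0) grown in 2i/Lif, 2 kinase inhibitors with leukaemia inhibitory factor that hold the naive state, and epiblast-like cells (EpiLC, day 2), which resemble the epiblast around implantation. Each stage was measured in 4 lines: DNMT_WT, DNMT_KO, which lacks Dnmt1, Dnmt3a and Dnmt3b, TET_WT, and TET_KO, which lacks Tet1, Tet2 and Tet3. Each knock-out was made in the wild-type line of the same prefix, and each genotype is 1 line, so a genotype cannot be told apart from its line. The Dnmt enzymes write DNA methylation and the Tet enzymes oxidise it, which starts its removal. The labels list 16 samples, 2 replicates for each of 8 groups, and the deposited values are 1 CHiCAGO score per group, so no value has a replicate error. The score weighs the reads of a fragment pair against those that distance and noise would give. Every listed interaction reached 5, the usual threshold for calling a contact, in at least 1 group. Contacts cannot check the cell type labels or the gene deletions, since they measure no expression.

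Sox2 encodes an HMG-box transcription factor that works with Oct4 (gene Pou5f1) to hold the pluripotent state and that later marks neural progenitors. Its expression in mouse ESC depends on a cluster of enhancers far downstream of the gene, known as the Sox2 control region, in a wide stretch that holds few other coding genes. Sox2ot is a long noncoding RNA transcribed in the same direction across Sox2, and Mir1897 encodes a microRNA inside the Sox2ot transcription unit. On GRCm38 the Sox2 fragment was chr3:34647507-34650462 and held the start of the RefSeq gene (chr3:34649995-34652461). The Mir1897 fragment was chr3:34638138-34642935, and its middle lay 8.4 kb before that of Sox2. The fragment named for Sox2ot was chr3:34103306-34111356 and carried 16 Sox2ot transcript names. It ended 449.0 kb before the RefSeq start of Sox2ot (chr3:34560381-34677993) and lay 541.7 kb from the Sox2 fragment, so it stands for distant transcript starts and not for the RefSeq promoter.

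The promoter of Sox2 is shown because it lies inside the captured fragment and because the lines compared differ in the enzymes that methylate and oxidise CpG. These are the 250 bases before the RefSeq start, chr3:34649745-34649994 on the plus strand of GRCm38.p6, 5' to 3', with each CpG in capitals.
Sox2: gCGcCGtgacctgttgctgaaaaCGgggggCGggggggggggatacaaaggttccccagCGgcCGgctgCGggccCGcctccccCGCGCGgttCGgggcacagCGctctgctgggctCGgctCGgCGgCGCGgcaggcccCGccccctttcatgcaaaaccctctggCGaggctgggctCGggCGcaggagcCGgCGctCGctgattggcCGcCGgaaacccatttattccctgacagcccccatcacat
The window held 27 CpG and was 72.0% G or C. Of 32536 RefSeq promoter windows of the same length, 91.4% held fewer CpG. A search of both strands found CCAAT, the CCAAT box, once, at position 205 from the 5' end, and 33.8% of all windows held it. The octamer ATGCAAAT (1.6% of windows), the SOX core CATTGT (10.5%) and TATAAA (12.3%) had no exact match in these letters. DNA methylation at these sites was not measured here. The microRNA of the locus is shown with its seed, bases 2 to 8, in capitals (RefSeq, chr3:34638511-34638532, plus strand).
mmu-miR-1897-3p: uCAACUCGuucuguccggugag
No other of the 1674 different mature mouse sequences in the RefSeq table shared this seed.

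All 20 listed contacts of Sox2 lay downstream of the gene. Of the 14 of Mir1897, 13 lay downstream and 1 upstream, at -394.3 kb. Among the 8829 promoter fragments with 10 or more contacts on their own chromosome, 29.51% had all of them on 1 side. The median distance was 459.8 kb for Sox2 and 468.3 kb for Mir1897, against 274.6 kb over all same-chromosome interactions. Of the promoters with 10 or more contacts, 81.0% had a shorter median than Sox2. A single Sox2 contact and no Mir1897 contact lay within 150 kb, where 24.3% of all same-chromosome interactions lay. Sox2 was listed with more contacts than 78.4% of promoters and Mir1897 with more than 66.9%, where the median promoter had 8.

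Most contacts fell into 2 clusters, whose bounds were drawn after their positions were seen. The near cluster, 390 to 500 kb downstream, held 12 Sox2 contacts and 8 Mir1897 contacts and lay between the RefSeq genes Gm35255 and 1700017M07Rik. The far cluster, 800 to 850 kb downstream, held 6 and 4 and lay between Gm38512 and Gm7733. Outside them lay the Sox2 contacts at 116.4 and 660.7 kb and the Mir1897 contacts at -394.3 and 918.7 kb. The 35 interactions ended on 24 different fragments of 247 to 3872 bases. None of these overlapped a RefSeq gene and none was itself a captured promoter, so none of the 35 joined its promoter fragment to another captured promoter. Sox2 and Mir1897 shared 10 of these fragments, which is 10 of the 20 of Sox2 and 10 of the 14 of Mir1897. The median score over the 8 groups was higher from Sox2 in 10 of 10 of them. On chr3:35100360-35101190 it was 10.34 from Sox2 and 5.267 from Mir1897. On chr3:35481670-35483852, in the far cluster, it was 8.075 and 3.764. The shared fragments lay in both clusters, 6 in the near one and 4 in the far one.

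**Figure D1:**
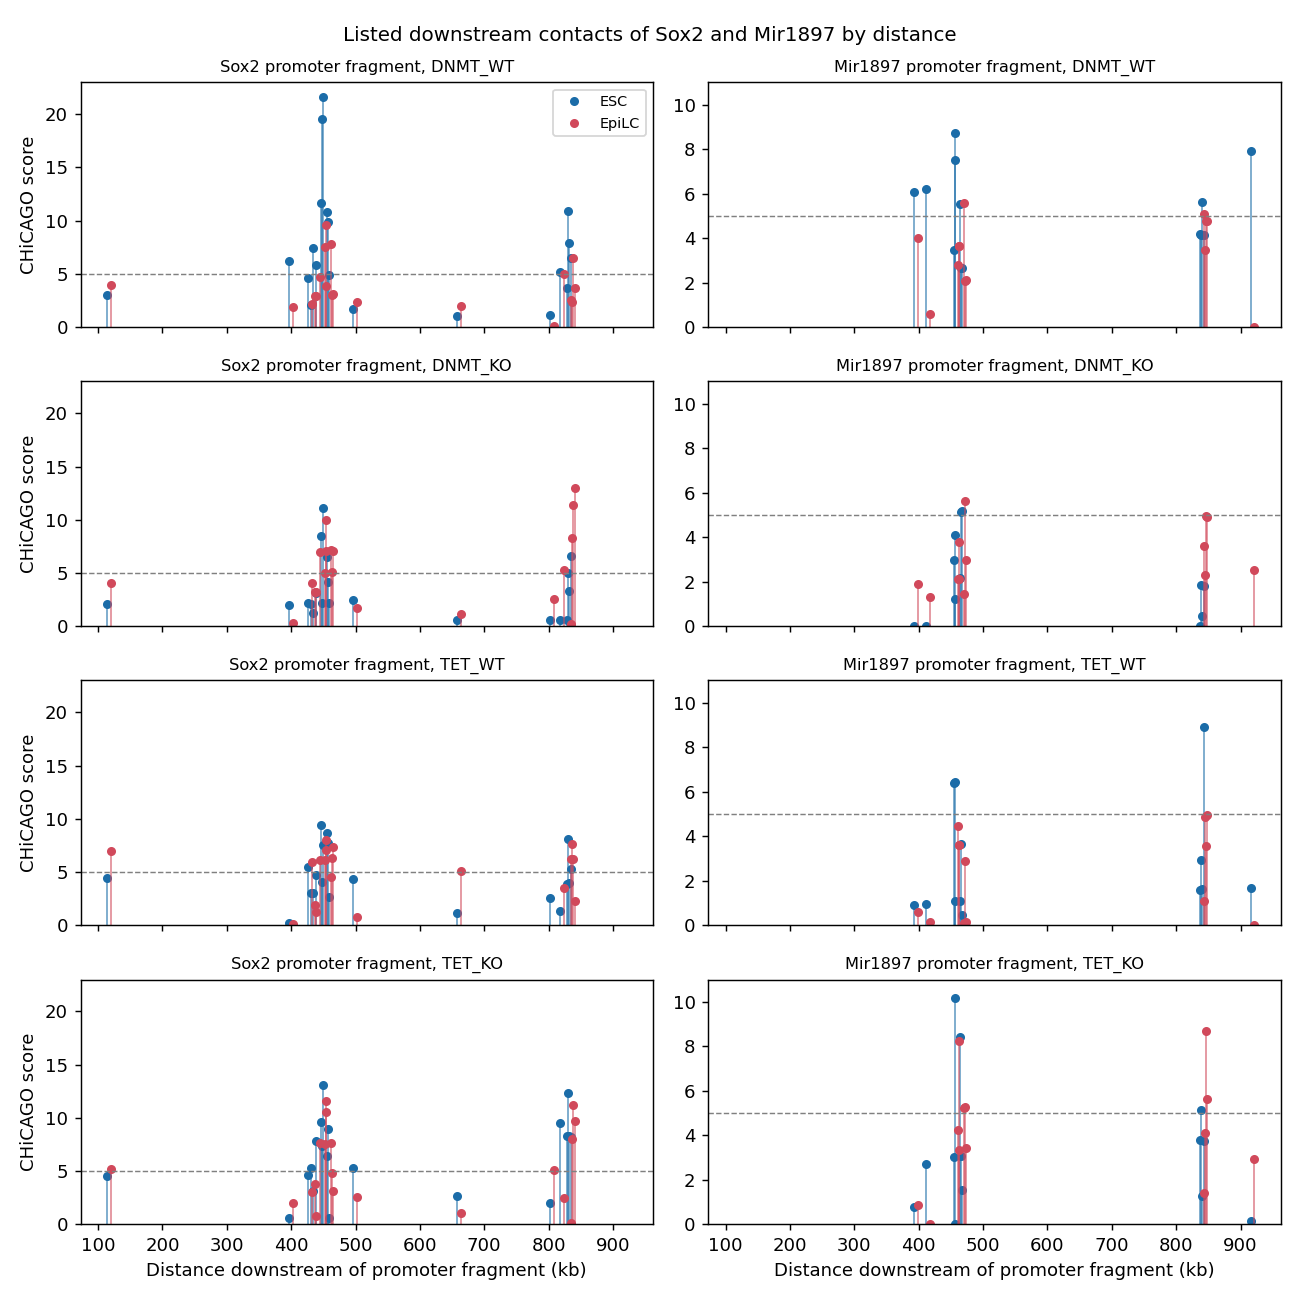
CHiCAGO score (vertical axis) against distance downstream of the promoter fragment in kb (horizontal axis) for the listed contacts of Sox2 (left) and Mir1897 (right), 1 row per line, with ESC in blue and EpiLC in red. ESC points are drawn slightly to the left and EpiLC points slightly to the right of the true distance, the dashed line is the calling threshold of 5, and the columns of panels have different vertical scales. The contacts stand in a near cluster at 390 to 500 kb and a far cluster at 800 to 850 kb, and the highest point is the DNMT_WT ESC score of 21.6 at 451.8 kb from Sox2.

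The most strongly scored contact of the locus joined the Sox2 promoter to chr3:35100360-35101190, 451.8 kb downstream. In ESC its scores in DNMT_WT, DNMT_KO, TET_WT and TET_KO were 21.6, 11.1, 7.57 and 13.1, and in EpiLC 9.60, 7.03, 8.04 and 11.6. This was the only one of the 35 at 5 or more in all 8 groups, where 6.7% of all interactions were. By contrast, 16 of the 35 reached 5 in 1 group only, as did 44% of all interactions. Scores of the other contacts below are given in the same order of lines.

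Its neighbours in the near cluster were also among the highest. The fragment next but one, chr3:35097460-35100112 at 449.8 kb, scored 11.7, 8.48, 9.42 and 9.61 in ESC, against 7.55, 4.99, 6.15 and 7.56 in EpiLC. All 4 ESC scores lay above all 4 EpiLC scores. The 247-base fragment between them, at 451.3 kb, scored 19.5, 2.14, 4.05 and 7.33 in ESC, against 3.83, 10.0, 7.09 and 10.6 in EpiLC. There DNMT_WT was high in ESC and low in EpiLC, while the other 3 lines went the opposite way. The contact at 458.8 kb (chr3:35106848-35108677) scored 10.8, 6.45, 8.68 and 6.41 in ESC, against 7.80, 7.12, 4.50 and 7.64 in EpiLC, and the stages overlapped. The contact at 460.9 kb scored 9.91, 4.16, 7.74 and 8.97 in ESC, against 3.04, 5.10, 6.34 and 4.80 in EpiLC. It was lower in EpiLC in every line except DNMT_KO. At 442.3 kb ESC had 5.85, 3.10, 4.71 and 7.78 and EpiLC 4.67, 6.99, 6.09 and 7.62.

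Averaged over the near cluster, the Sox2 scores of ESC were 8.86, 3.95, 5.07 and 6.06, against 4.32, 5.06, 4.63 and 5.43 for EpiLC. Over the 5 far contacts with every score, ESC averaged 6.82, 3.20, 4.51 and 9.36, and EpiLC 4, 7.62, 5.18 and 6.29. Neither cluster separated the stages, and in both DNMT_WT was higher in ESC while DNMT_KO was higher in EpiLC. The near average includes the contacts at 400.0 and 436.4 kb, listed through DNMT_WT ESC alone, and those at 434.3 and 498.8 kb, listed through TET_KO ESC alone. At 833.8 kb (chr3:35481670-35483852) ESC scored 10.9, 4.99, 8.10 and 12.4 and EpiLC 2.35, 8.28, 7.65 and 8.05. At 835.4 kb ESC scored 7.90, 3.33, 3.98 and 8.30 and EpiLC 6.45, 11.4, 6.24 and 11.2. The 2 highest of these were the EpiLC scores of the knock-out lines. At 837.3 kb (chr3:35484818-35487700) ESC scored 6.44, 6.55, 5.27 and 8.24 and EpiLC 3.67, 13.0, 2.29 and 9.66. Here both wild-type lines were lower in EpiLC than in ESC and both knock-out lines higher. The fragment at 821.0 kb, chr3:35468080-35471850, was the only one listed for both Sox2 and Sox2ot. From Sox2 it had 5.18, 0.583, 1.32 and 9.56 in ESC, with the TET_KO line highest, and 4.99, 5.29, 3.51 and 2.45 in EpiLC.

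Of the stretch 90 to 120 kb downstream, where the Sox2 control region is known to lie in mouse ESC, 1 contact was listed. It joined Sox2 to chr3:34764969-34765723, between Gm3143 and Gm38509, 115.4 kb from the start of the gene. ESC scored 3.00, 2.06, 4.47 and 4.56 and EpiLC 3.90, 4.05, 6.96 and 5.19, so only the TET lines in EpiLC reached 5. Each line scored higher in EpiLC than in ESC, but the stages overlapped. The contact is listed through the TET EpiLC groups alone, so the direction in the TET lines was fixed in advance. Its mean asinh score was 1.96 ± 0.30 in ESC and 2.28 ± 0.24 in EpiLC (SD, n = 4 lines), and a two-sided exact permutation of the stage labels gave p = 0.2. The permutation did not pair the stages of a line, and its values include the TET lines, whose direction the listing fixed. No contact of Mir1897 with this region was listed. The list holds only interactions that reached 5 somewhere, so contacts with other fragments of the region that stayed below it are not seen.

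From Mir1897, the highest contact ended on the same fragment as the highest of Sox2, at 460.2 kb. ESC scored 7.53, 4.08, 6.45 and 10.2 and EpiLC 3.65, 3.80, 3.62 and 8.26, lower in EpiLC in 4 of 4 lines but with overlap between the stages. At 843.8 kb, in the far cluster, Mir1897 scored 5.62, 0.460, 1.64 and 1.27 in ESC and 4.78, 4.93, 3.55 and 8.67 in EpiLC. DNMT_WT alone was lower in EpiLC there. At 845.7 kb it scored 4.14, 1.80, 8.90 and 3.74 in ESC and 4.79, 4.92, 4.95 and 5.61 in EpiLC, where the EpiLC scores lay close together and the ESC scores did not. Over the 8 groups, the Mir1897 median scores of the 10 shared fragments ran from 2.382 at 470.7 kb to 5.267 at 460.2 kb. The single Sox2ot contact, at 1362.6 kb, had a score of 5.53 in DNMT_WT ESC, 0.747 in DNMT_WT EpiLC, 1.17 in TET_KO ESC and 0 in TET_WT at both stages. It had no score in DNMT_KO at either stage or in TET_KO EpiLC, and was not tested.

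**Figure D2:**
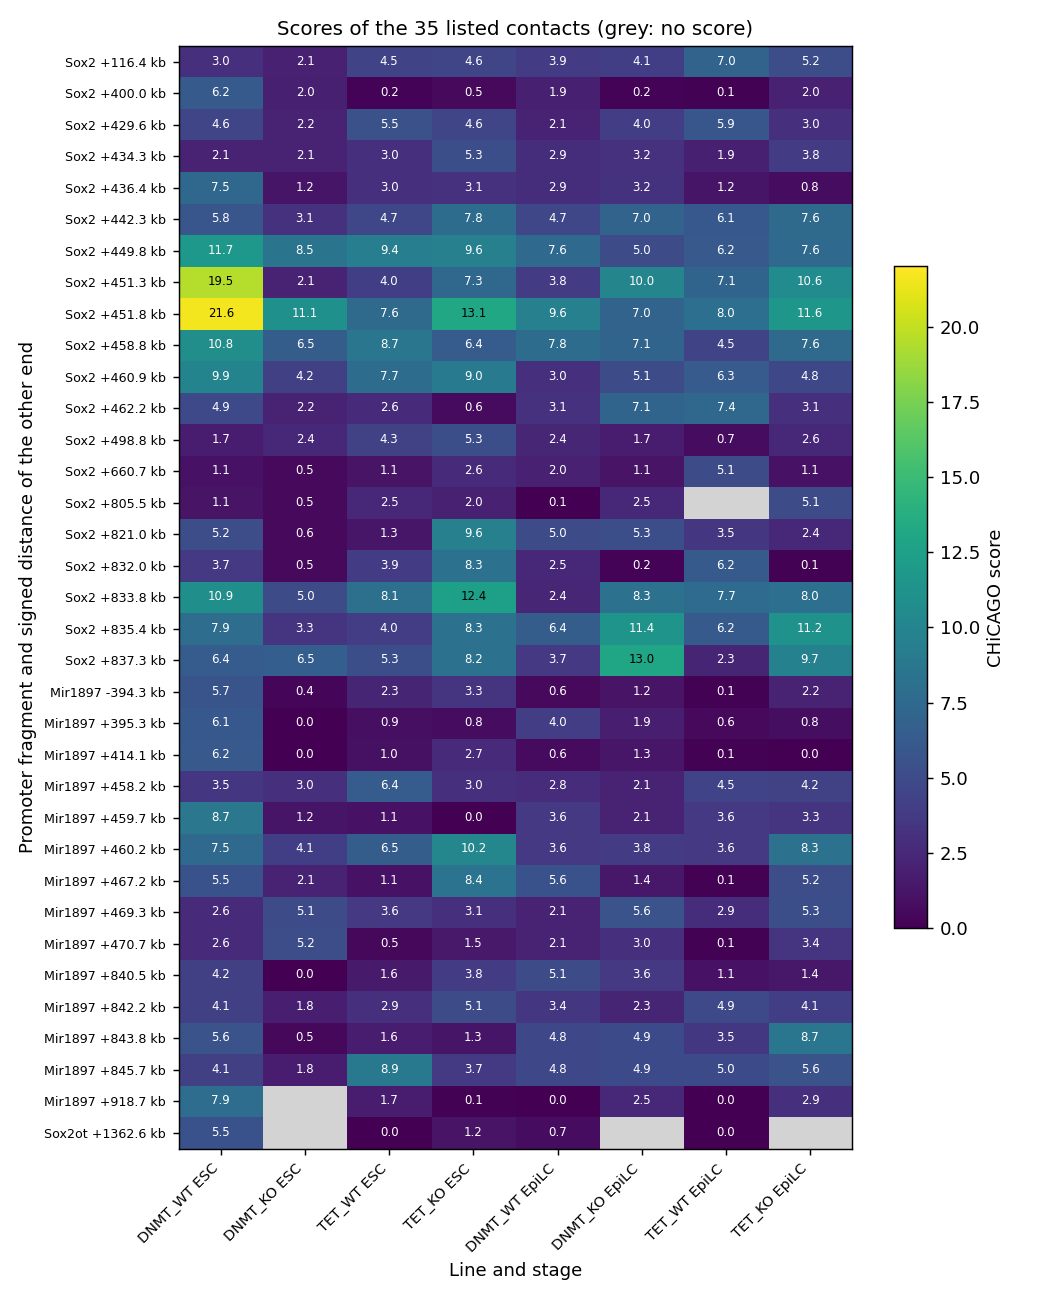
CHiCAGO scores (colour scale) of the 35 listed contacts of the locus (rows, by promoter and distance in kb) in the 8 groups of line and stage (columns), where grey marks a missing score. Brighter cells are higher scores, and the brightest are the DNMT_WT ESC scores of 21.6 and 19.5 at 451.8 and 451.3 kb from Sox2.

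The first comparison asked whether these contacts differ between ESC and EpiLC. No single contact of the locus passed the stage test. Scores were put on an asinh scale, which is close to a logarithm for high scores, quantile-normalised between groups and fitted with limma over all 244865 same-chromosome interactions with a score in every group, with line as a block. Of the 35 contacts, 32 had every score and were tested (19 of Sox2 and 13 of Mir1897). At a Benjamini-Hochberg adjusted p under 0.05, 0 of 32 were called, against 0.313% of all interactions. Their adjusted p ran from 0.171 to 0.991. At an unadjusted p under 0.05 there were 7 of 32 (21.9%, against 16.6% of all), 3 higher in EpiLC (8.32% of all) and 4 lower (8.28% of all). In direction, 13 were higher and 19 lower in EpiLC, with a median difference of -0.17 against -0.01 over all interactions.

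The Sox2 contact at 449.8 kb was the only one of the 32 whose stages did not overlap, where 8.64% of all interactions had no overlap. Its difference was -0.42 ± 0.15 (limma SE, limma adjusted p = 0.188). The neighbouring top contact at 451.8 kb differed by -0.34 ± 0.16 (limma adjusted p = 0.296), and by -0.20 without DNMT_WT. The Mir1897 contact at 843.8 kb had the largest difference of the 32, 0.95 ± 0.33 (limma adjusted p = 0.171). It was 0.22 in the mean of the wild-type lines and 1.69 in that of the knock-out lines. For the Sox2 contact at 116.4 kb the difference was 0.32 ± 0.21 (limma adjusted p = 0.463), with the direction in the TET lines fixed by the listing. In 3 of the 32, the wild-type lines both differed in one direction and the knock-out lines both in the other, against 8.83% of all interactions. The median over the 32 depended on 1 line: it was -0.03 without DNMT_WT.

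**Figure D3:**
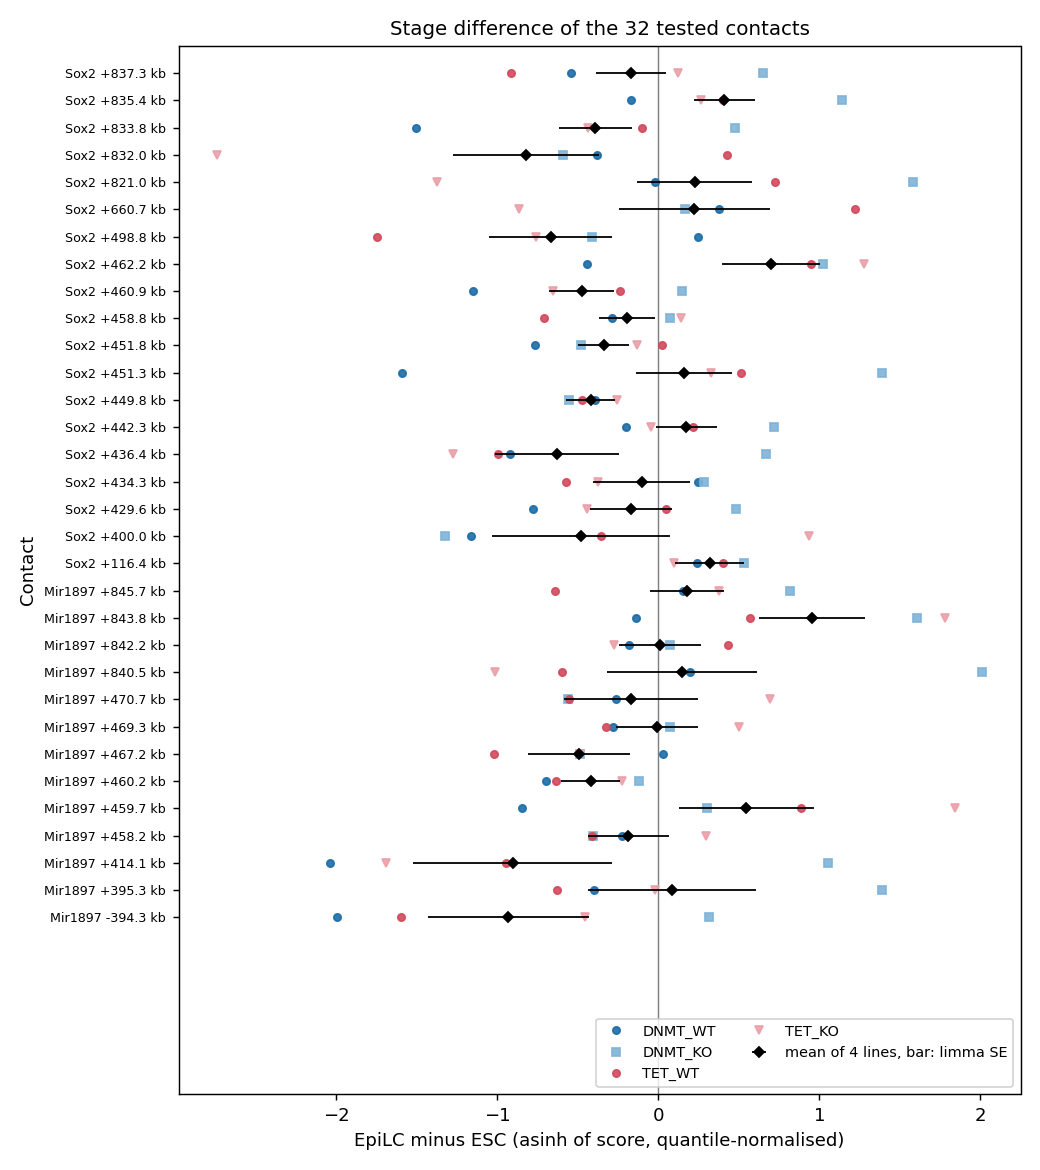
EpiLC minus ESC difference in asinh score after quantile normalisation (horizontal axis) for each of the 32 tested contacts (vertical axis), with 1 coloured point per line, the mean of the 4 lines in black and its limma SE as a bar. The points of the 449.8 kb contact of Sox2 all lie left of 0 and those of the 116.4 kb contact all right of it, while the lines scatter on both sides of 0 for most others.

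Summed over all its contacts, neither promoter passed the test either. The promoter value is the mean asinh score over a promoter's listed contacts with every score, for promoters with at least 3. For Sox2 in ESC it was 2.50, 1.82, 2.11 and 2.36, and in EpiLC 2.01, 2.14, 2.05 and 2.03. The means were 2.20 ± 0.30 and 2.06 ± 0.06 (SD, n = 4 lines), and the difference was -0.14 ± 0.12 (SE, limma adjusted p = 0.471). It came to -0.02 without DNMT_WT and to -0.29 without DNMT_KO. The 4 lines lay within a narrow band in EpiLC and were spread in ESC, with DNMT_WT highest and DNMT_KO lowest. This value includes contacts listed through 1 group alone, whose highest group was fixed in advance. Those at 400.0 and 436.4 kb are listed through DNMT_WT ESC. Those at 434.3 and 498.8 kb are listed through TET_KO ESC, and that at 660.7 kb through TET_WT EpiLC. For Mir1897 in ESC it was 2.29, 1.23, 1.60 and 1.70, and in EpiLC 1.78, 1.70, 1.18 and 1.80. Its difference was -0.09 ± 0.18 (SE, limma adjusted p = 0.791). Of the 15677 promoters tested, 8.87% passed, 585 higher and 806 lower in EpiLC, which without scaling between groups became 905 higher and 442 lower. Averaged over the groups, Sox2 stood above 78.9% of promoters and Mir1897 above 19.1%.

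The number of contacts at 5 or more did not separate the stages. Sox2 had 12, 4, 7 and 13 in ESC and 4, 10, 12 and 10 in EpiLC, a mean of 9 ± 4.24 and 9 ± 3.46 (SD, n = 4 lines, exact two-sided permutation p = 1, adjusted over the 2 promoters 1). Mir1897 had 8, 2, 3 and 3 in ESC and 2, 1, 0 and 5 in EpiLC (4 ± 2.71 and 2 ± 2.16, exact two-sided permutation p = 0.4, adjusted 0.8). The smallest p this test can give is 0.0286, and the test does not pair the stages of a line.

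The DNMT_WT ESC group held the highest score of the 8 in 11 of the 32 contacts (34.4%), where it did so in 12.5% of all interactions. TET_KO ESC did so in 9 (28.1%, against 13.9% of all). Of the 11, Mir1897 -394.3, 395.3, 414.1 and 459.7 kb and Sox2 400.0 and 436.4 kb reached 5 in DNMT_WT ESC only. Of the 9, Sox2 434.3 and 498.8 kb and Mir1897 842.2 kb reached 5 in TET_KO ESC only. These contacts are listed through that group alone, so their highest group was fixed in advance. The neighbouring promoter AC137708.1, whose fragment chr3:34590150-34590859 lies inside RefSeq Sox2ot and lists 7 of the same distant fragments, was lowest in DNMT_WT among the ESC groups. Its promoter value was 1.16 there and 1.36 to 1.81 in the other ESC groups. Its contacts with chr3:35100360-35101190, chr3:35468080-35471850 and chr3:35558581-35559889 reached 5 in TET_WT ESC only. Those with chr3:35106848-35108677 and chr3:35147120-35148536 did so in DNMT_KO ESC only. In these contacts, a DNMT_WT ESC score below that of the listing group was fixed in advance. As each group is 1 column, what belongs to the line and what to its libraries cannot be told apart.

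The second comparison set each knock-out against its wild type. No test is possible on single columns, so a contact was counted when its asinh score differed by at least 0.693, a doubling for high scores. In ESC, DNMT_KO scored lower than DNMT_WT by that much in 15 of the 32 contacts (12% of all interactions) and higher in 0 (12% of all), with a median difference of -0.65. In EpiLC the same lines gave 5 higher (10.3% of all) and 4 lower (10.2% of all), with a median of 0.04. The 2 wild types differed in ESC by nearly as many: TET_WT scored lower than DNMT_WT in 13 contacts (13.2% of all) and higher in 2 (12.7% of all). Both of these ESC comparisons share the DNMT_WT column. Among those lower in both were Mir1897 -394.3, 395.3, 414.1 and 459.7 kb and Sox2 400.0 and 436.4 kb. These reached 5 in DNMT_WT ESC only and are listed through it alone, so lower scores elsewhere were fixed in advance. In EpiLC, TET_WT scored higher than DNMT_WT in 6 (11.9% of all) and lower in 7 (11.7% of all). TET_KO scored higher than TET_WT in 4 (11.2% of all) and lower in 4 (10.8% of all) in ESC, and higher in 9 (12.4% of all) and lower in 4 (12.2% of all) in EpiLC.

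Some contacts kept the sign of their difference at both stages. For DNMT_KO these were 4 higher and 12 lower, where 23.8% and 23.3% of all interactions were. By the mean of the stages, the largest negative differences among them were at Mir1897 395.3 kb (-2.51 in ESC and -0.72 in EpiLC), Sox2 832.0 kb (-1.26 and -1.47) and Mir1897 840.5 kb (-2.15 and -0.33). The Sox2 contact at 832.0 kb scored 3.68 and 2.55 in DNMT_WT ESC and EpiLC and 0.547 and 0.176 in DNMT_KO. Mir1897 840.5 kb ended on the same fragment as Sox2 832.0 kb. The largest positive differences were at Mir1897 469.3 kb (0.64 and 1.00), Sox2 837.3 kb (0.05 and 1.25) and Mir1897 470.7 kb (0.65 and 0.36). Mir1897 395.3 kb reached 5 in DNMT_WT ESC only, Mir1897 840.5 kb in DNMT_WT EpiLC only and Mir1897 470.7 kb in DNMT_KO ESC only. Each is listed through that group alone, so the sign at that stage was fixed in advance. From Sox2, the fragments of Mir1897 469.3 and 470.7 kb gave -0.79 and 0.51, and -0.65 and 0.82. From Mir1897, that of Sox2 837.3 kb gave -0.65 and 0.01.

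For TET_KO 14 were higher and 6 lower at both stages, where 27.3% and 29.2% of all interactions were. The largest positive differences among them were at Mir1897 467.2 kb (1.74 in ESC and 2.28 in EpiLC), Mir1897 470.7 kb (0.59 and 1.84) and Sox2 837.3 kb (0.40 and 1.44). At Mir1897 467.2 kb TET_WT scored 1.07 and 0.115 in ESC and EpiLC and TET_KO 8.40 and 5.24. The largest negative differences were at Sox2 462.2 kb (-1.23 and -0.91), Mir1897 459.7 kb (-1.06 and -0.10) and Sox2 429.6 kb (-0.21 and -0.71). Mir1897 470.7 kb and Sox2 462.2 kb are the same fragment, with opposite signs from the neighbouring promoters. From Sox2, the fragment of Mir1897 467.2 kb gave -0.35 and 0.50, and that of Mir1897 459.7 kb gave 0.54 and 0.35. From Mir1897, the fragment of Sox2 837.3 kb gave -0.91 and 0.10. Sox2 429.6 kb reached 5 in TET_WT only, at both stages. It is listed through these groups alone, so its sign at both stages was fixed in advance.

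At the promoter level, Sox2 differed by -0.67 in ESC and 0.13 in EpiLC between DNMT_KO and DNMT_WT, and by 0.25 and -0.02 between TET_KO and TET_WT. Mir1897 differed by -1.06 and -0.08, and by 0.09 and 0.62. The wild types differed from each other, TET_WT minus DNMT_WT, by -0.39 and 0.04 for Sox2 and by -0.69 and -0.59 for Mir1897. The ESC values of DNMT_WT include contacts listed through that group alone.

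**Figure D4:**
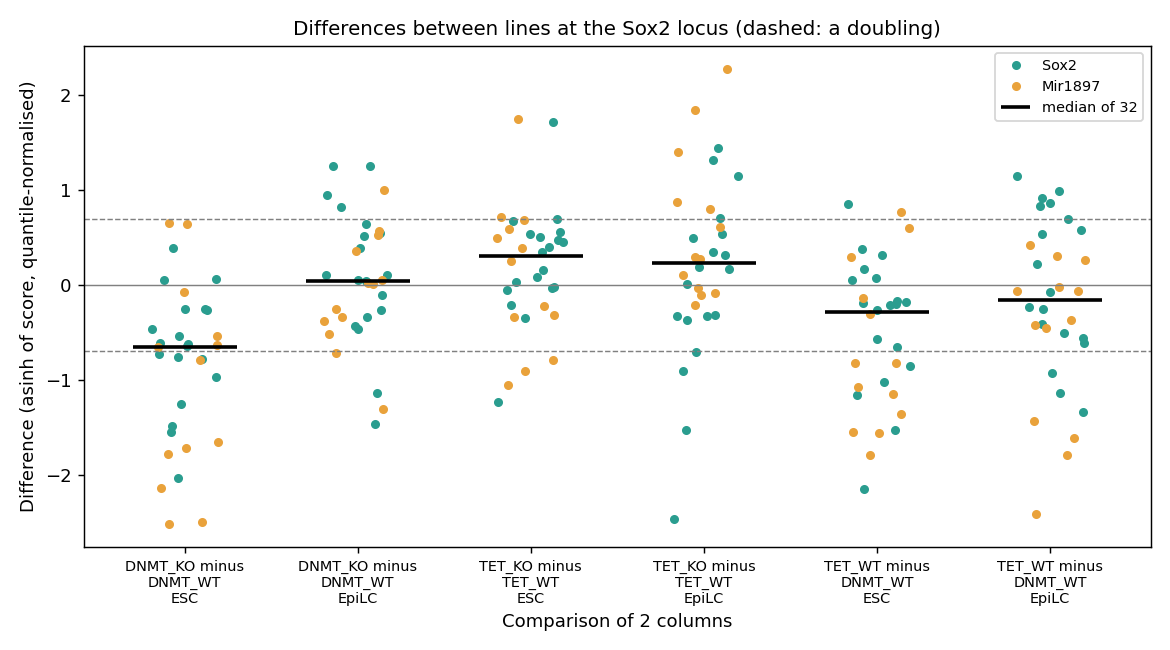
Differences in asinh score after quantile normalisation between lines (vertical axis) for the 32 contacts of Sox2 (green) and Mir1897 (orange), 1 point per contact spread sideways for legibility, with the median as a bar and a doubling as dashed lines, for DNMT_KO minus DNMT_WT, TET_KO minus TET_WT and TET_WT minus DNMT_WT in ESC and EpiLC (horizontal axis). The points of DNMT_KO minus DNMT_WT in ESC lie mostly below 0, with a median of -0.65, and those of the 2 wild types in ESC have a median of -0.29.

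The promoters whose 8 promoter values ran most like those of Sox2 were Gm10320 (Pearson r = 0.940), U6.818 (0.926), Fam82a1 (0.920), Rrh, which encodes an opsin-like protein (0.908), and Acads, an enzyme of short-chain fatty acid oxidation (0.907). They came from 8531 promoters with at least 10 contacts outside 2 Mb of Sox2, of which 0.0703% reached 0.9. The r is a description over 8 groups that share 4 lines. Gm10320 had values of 2.29, 1.95, 2.08 and 2.21 in ESC and 2.00, 2.15, 2.02 and 2.12 in EpiLC, with the same DNMT_WT high and DNMT_KO low in ESC as Sox2. Mir1897 correlated with Sox2 at 0.747.

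Among other genes of the SOX family, which share the HMG box, 13 of 20 listed promoters including Sox2 were tested. At the promoter level 1 rose in EpiLC (3.73% of all promoters) and 0 fell (5.14% of all), with a median difference of 0.02 against -0.01 over all promoters. The one that rose was Sox3, the closest relative of Sox2 together with Sox1, by 0.50 ± 0.11 (SE, limma adjusted p = 0.0181). ESC values were 1.68, 1.67, 1.80 and 1.80, EpiLC values 2.19, 2.42, 2.31 and 2.03, with no overlap. It kept its direction in all 11 alternative settings and passed in 7. It did not pass without DNMT_KO (limma adjusted p = 0.101), without TET_WT (0.0656), with wild-type lines alone (0.151) or with no minimum of contacts (0.0614). Sox4, a factor of lymphocyte and neural development, differed by 0.08, Sox6, a factor of cartilage and muscle fibre type, by -0.08, Sox8 by -0.12 and Sox9, a regulator of cartilage and testis formation, by -0.33 (limma adjusted p = 0.722, 0.732, 0.481 and 0.234). None of these 4 passed.

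Of 32 partners and targets of SOX2 in pluripotent cells, 26 were tested, and 2 rose (3.73% of all promoters) and 1 fell (5.14% of all), with a median of 0.05. Klf4, a naive pluripotency factor, rose by 0.62 ± 0.14 (SE, limma adjusted p = 0.0181). Nr5a2, a nuclear receptor that can drive Pou5f1, rose by 0.58 ± 0.16 (SE, limma adjusted p = 0.0369). Nr0b1, an orphan nuclear receptor of naive cells, fell by 0.79 ± 0.18 (SE, limma adjusted p = 0.0193). Of 11 alternative settings, Klf4 passed in 4, Nr5a2 in 5 and Nr0b1 in 6, and each kept its direction in all 11. With 1 line left out, Klf4 passed only without DNMT_WT, Nr5a2 only without TET_KO and Nr0b1 only without TET_WT (limma adjusted p up to 0.1004, 0.152 and 0.0891). None of the 3 passed with wild-type lines alone or with no minimum of contacts, nor did Klf4 and Nr5a2 without the line block (limma adjusted p = 0.0755 and 0.1004). Klf4 came to 0.30 (limma adjusted p = 0.261) when only contacts within 1 Mb were used. Pou5f1, the gene of Oct4, differed by 0.35, Nanog, a homeobox pluripotency factor, by 0.07, Esrrb, an orphan nuclear receptor of naive cells, by -0.34 and Klf2, a relative of Klf4, by 0.35 (limma adjusted p = 0.188, 0.696, 0.0663 and 0.0897). None of these 4 passed.

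Of the 6 promoters within 1 Mb of Sox2, 3 had enough contacts to test and 0 passed. SNORA17.210 differed by -0.60 ± 0.19 (SE, limma adjusted p = 0.0586) and AC137708.1 by -0.41 ± 0.21 (SE, limma adjusted p = 0.225). Looking inward, 2 contacts of other promoters ended within 50 kb of the Sox2 fragment. Fxr1, an RNA-binding protein gene, was listed 639.4 kb away with a score of 6.97 in DNMT_WT ESC and at most 2.08 elsewhere. Atp11b, a phospholipid flippase gene on the other side, was listed with 6.33 in DNMT_KO EpiLC and at most 1.46 in the other groups with a score; DNMT_KO ESC had none.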

How the data were processed

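The 16 promoter-capture Hi-C samples fall into 8 groups. The deposited table holds CHiCAGO scores made by the authors, 1 column per group; no source used here says how replicates were combined. Per the submitters' processing notes, the build was GRCm38 and the tools included Trim Galore 0.6.5 and cutadapt 2.3. The sequencing depth per sample is unknown, so no counting interval can be given.

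Scores were transformed with asinh and quantile-normalised over all interactions with every score. The fit of single contacts then used the same-chromosome ones, and promoter values used all of them. Stages were compared with limma 3.58.1 in R 4.3.3 (line as block, eBayes with trend, Benjamini-Hochberg adjustment over 244865 interactions or 15677 promoters) and, for single values, with exact permutation tests (SciPy 1.17.1, Python 3.11.15). The SE is that of limma, whose eBayes step draws the spread between the 4 lines towards a trend over all interactions or promoters. Knock-out lines derive from the wild types, so lines are not fully independent. The fit was tested on simulated data. Members, lists and tests were chosen with earlier results of these data known. Named contacts are the listed ones at 90 to 120 kb, up to 10 with the highest mean asinh score per promoter, and the 3 largest knock-out differences each way with the same sign at both stages. Contacts named outside this rule, such as that at 821.0 kb, were chosen after their values were seen. Sequences are from RefSeq (GRCm38.p6). Alternatives covered scaling, scale, filters, block and left-out lines.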

Additional observations from a re-analysis of the deposited data

Results flagged for a closer look

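In 5 of the 44 groups of 4 values tested, 1 value stood apart from the other 3 by Dixon's test at 95%, which chance does in about 1 of 20 groups. From Mir1897, these were the TET_WT ESC score of 6.41 at 458.2 kb, the DNMT_WT ESC score of 8.70 at 459.7 kb and the TET_KO EpiLC score of 8.26 at 460.2 kb, each the highest of its stage. From Sox2, it was the DNMT_WT EpiLC score of 2.35 at 833.8 kb, the lowest of its stage. Among promoter values, it was the TET_WT EpiLC value of 1.18 for Mir1897, also the lowest. The rate of about 1 of 20 is that of values not chosen by their height. A contact is listed only if it reached 5 in some group. Mir1897 458.2 kb is listed through TET_WT ESC alone and Mir1897 459.7 kb through DNMT_WT ESC alone. The number of flags therefore cannot be set against that rate.

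In 3 of the 32 tested contacts both wild-type lines differed one way between the stages and both knock-out lines the other way, as they did in 8.83% of all interactions. So did 1 of the 2 promoter values. The Sox2 contact at 837.3 kb differed between the stages by -0.73 in the mean of the wild types and by 0.39 in the mean of the knock-outs, a gap of 1.12 in asinh score. The Sox2 contact at 458.8 kb differed by -0.50 and 0.11, a gap of 0.61. The Mir1897 contact at 469.3 kb differed by -0.30 and 0.29, a gap of 0.59. For the promoter value of Mir1897 the gap was 0.75. The difference between wild types and knock-outs was not tested in any of the 4.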

How the results depend on the processing

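No paired analysis was possible because the file holds 1 column per group and the columns carry no replicate numbers; the line block instead pairs the ESC and EpiLC columns of a line. The count of 0 called contacts of the locus was 0 under every alternative run with limma, with 1 to 7 contacts at an unadjusted p under 0.05. Over all interactions the calls changed more: 500 higher and 266 lower became 161 and 79 without the line block, 12 and 5 among interactions at 5 or more in at least 2 groups, 240 and 140 with missing scores read as 0, 771 and 458 on the log2(score + 1) scale, between 0 and 3 higher when 1 line was left out, and 0 with wild-type lines alone (18156 at an unadjusted p under 0.05). Promoter calls, 585 higher and 806 lower, became 203 and 319 without the line block, 13 and 16 with wild-type lines alone, 9 and 12 with no minimum of contacts, and 12 to 273 higher and 13 to 342 lower when 1 line was left out. Of the 20 contacts named by position or score, 13 kept the direction of their stage difference under every alternative. The named knock-out differences kept their sign under both other scalings. Without scaling, with division by the mean and on the log2 scale, Mir1897 at 469.3 kb (main value -0.01) came to 0.0433, 0.0057 and 0.000138. With wild-type lines alone, Mir1897 at 840.5 kb came to -0.20, Mir1897 at 845.7 kb to -0.24 and Sox2 at 451.3 kb to -0.54. Over the 4 fits that each leave out 1 line, the range crossed 0 for Mir1897 at 469.3 kb (-0.18 to 0.10), 840.5 kb (-0.47 to 0.54), 842.2 kb (-0.13 to 0.11) and 845.7 kb (-0.0361 to 0.45). It also crossed 0 for Sox2 at 442.3 kb (-0.00941 to 0.30), 451.3 kb (-0.25 to 0.74) and 837.3 kb (-0.44 to 0.0779), and for the promoter value of Mir1897 (-0.277 to 0.0499). Left-out lines moved the difference in the number of contacts at 5 or more between -2 and 2.67 for Sox2 and between -3.33 and -0.67 for Mir1897, and a threshold of 3 gave 0.25 for Mir1897. For the knock-outs, DNMT_KO in ESC had 1 higher contact with division by the mean, and TET_KO in ESC had 8 higher without scaling. Counting only contacts that reached 5 in one of the columns compared and stayed below 3 in its partner gave, for DNMT_KO, 2 higher and 10 lower in ESC and 2 higher and 1 lower in EpiLC. For TET_KO it gave 3 higher and 0 lower in ESC and 3 higher and 2 lower in EpiLC, and for the wild types 0 higher and 8 lower in ESC and 4 higher and 2 lower in EpiLC. Of the 5 promoters most like Sox2, 1 was shared under Spearman and 4 without scaling. The cause of these changes was not tested.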
